A study of Mus musculus with 7 samples.

Results

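The 9 genes described here belong to the Hedgehog pathway: the receptor and co-receptor genes Ptch1, Gas1 and Boc, the ligand-binding antagonist Hhip, the signal transducer Smo, the inhibitor Sufu and the transcription factors Gli1, Gli2 and Gli3. They were chosen by symbol, as probes whose array annotation gives that 1 gene symbol, and all 9 were found among 18193 named genes. They had 25 probes, and each gene is represented by its brightest probe, by the mean of all 7 arrays. Of the 9 genes, 7 passed the filter on dim probes, and Gli1 and Gli2 lay below it.

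The samples were 3 tertiary and 4 secondary gliomas of mice, measured on Affymetrix arrays. All 7 carried glioma cells of C57/Bl6 background that overexpressed the growth factor PDGF-B, with the green fluorescent protein EGFP on the same transcript, and all grew in NOD/SCID hosts, which lack functional B and T lymphocytes but keep myeloid cells. The secondary gliomas came from grafts of primary gliomas of early onset and low grade. The tertiary gliomas came from grafts of a secondary glioma, so all tertiary samples had passed through 1 more host. EGFP-positive cells were sorted before RNA was taken, and host ages and treatments are not given in the labels. The labels do not say which vector or cell type started the tumours, nor which donor glioma or host each sample came from, so p-values measure the spread between these samples, part of which may be technical. Levels are deposited log2 values, in which a difference of 1 is a 2-fold change, and array medians ran from 5.57 to 5.64.

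Hedgehog ligands bind the receptor Ptch1 and so relieve its block on Smo, a membrane protein that then signals from the primary cilium. Signalling turns the Gli transcription factors from repressors, mainly Gli3, into activators, mainly Gli2, and Gli1 is both an activator and a target. Ptch1 and Hhip are targets as well and limit the signal. In the brain the pathway patterns the ventral neural tube, where it promotes oligodendrocyte precursors, and drives the division of cerebellar granule cell progenitors.

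Across the whole array, limma called 1066 of 14453 genes at an adjusted p under 0.05, or 7.38%, of which 915 (6.33%) were lower and 151 (1.04%) higher in tertiary gliomas. Of the 17 tested markers of microglia and macrophages, 17 were lower in tertiary gliomas. The log2 of the sum of their unlogged levels, which the brightest markers dominate, was 10.7 to 11.8 in tertiary and 14.9 to 15.4 in secondary gliomas. Of these 17, only Itgam and Adgre1 had tertiary means below the dim-probe limit of 3.99, at 3.03 and 3.52, and the other 15 had tertiary means of 4.86 to 9.28. None of the 9 tested oligodendrocyte precursor markers was called, with Olig2 at 10.5 ± 0.14 in tertiary and 10.3 ± 0.44 in secondary gliomas (SD). Of 8 cerebellar granule cell progenitor markers, Atoh1, Zic1, Zic2, Barhl1 and Neurod1 lay below that limit and none of the other 3 was called. Abcc9 was lower among 10 tested endothelial and mural markers, and none of 9 astrocyte, 7 fibroblast or 8 neuron markers was called. In sorted bulk samples, fewer cells of a type and less RNA per cell cannot be told apart, and the part of the myeloid difference in the values below was not tested.

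None of the 7 tested Hedgehog genes was called in tertiary against secondary gliomas, where 7.38% of all genes were. Their median log2 difference was 0.29, beside 0.09 over all genes tested, with 5 means higher and 2 lower in tertiary gliomas. The differences of Hhip and Smo were the largest of the 7, and theirs were the only unadjusted p-values under 0.05 among them, a level reached by 23.8% of all genes. The groups overlapped in each of the 7, whereas they did not overlap in 21.9% of all genes. With 3 against 4 arrays the 95% intervals were wide, and the absence of a call does not show that the levels were equal.

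**Figure D1:**
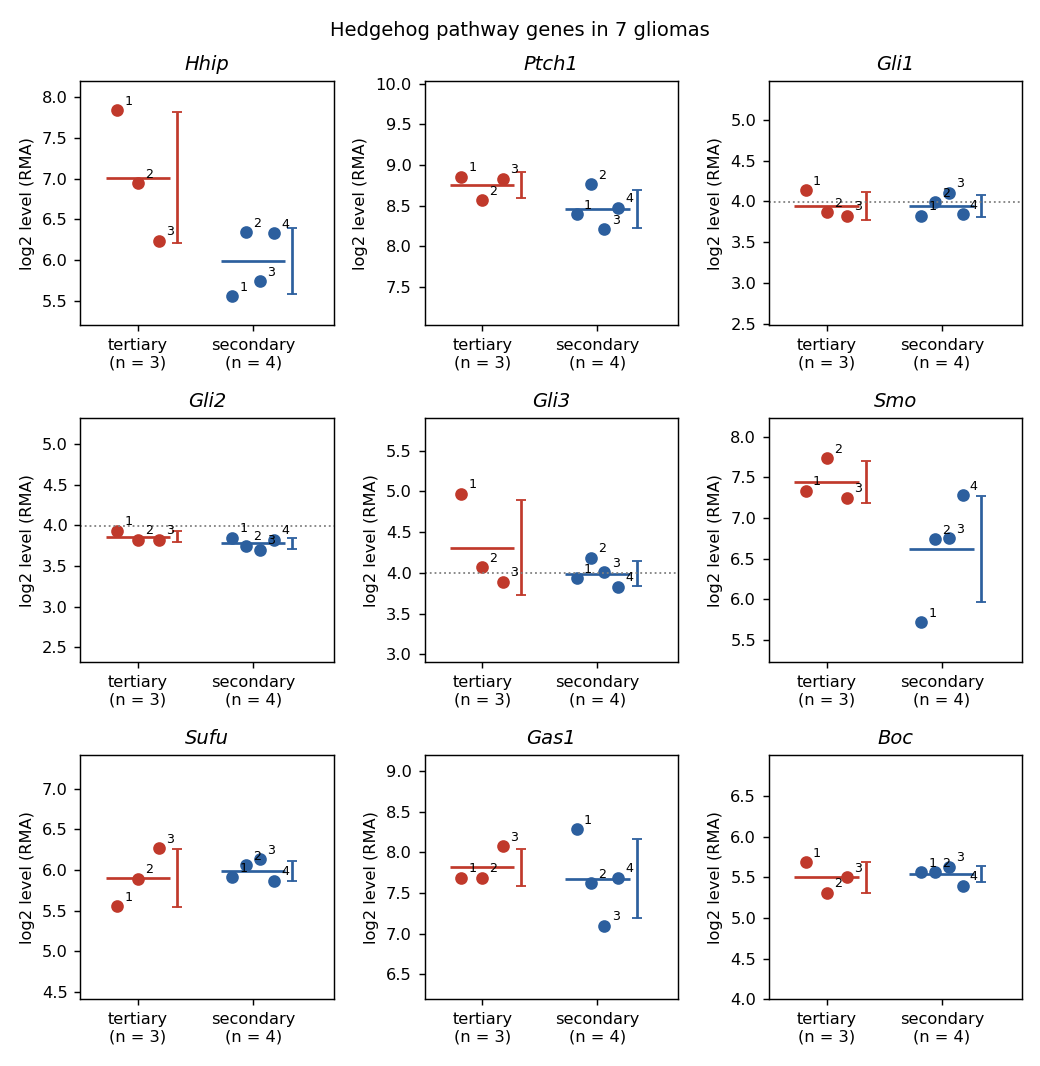
Log2 level (RMA) of the 9 Hedgehog pathway genes in each tertiary (red, left) and secondary (blue, right) glioma, numbered by replicate; horizontal lines are means, bars 1 SD, the dotted line is the dim-probe limit of 3.99, and every panel spans 3 log2 units. Hhip spreads most, Smo has 1 low secondary sample, and Gli1 and Gli2 stay near the limit.

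Hhip encodes a membrane-anchored protein that captures Hedgehog ligands and is induced by the pathway. Its log2 levels were 7.84, 6.95 and 6.24 in tertiary gliomas 1 to 3, against 5.55, 6.34, 5.74 and 6.33 in secondary gliomas 1 to 4. Tertiary gliomas 1 and 2 stood above every secondary glioma, while tertiary glioma 3 lay below secondary gliomas 2 and 4. The means were 7.01 ± 0.80 in tertiary and 5.99 ± 0.41 in secondary gliomas (SD, n = 3 and 4), a log2 difference of 1.02 ± 0.38 (SE) with an adjusted p of 0.162 in limma. The unadjusted 95% interval ran from 0.13 to 1.91, or from 1.10-fold to 3.75-fold. Without tertiary glioma 1 the log2 difference was 0.60, and with limma's array weights it was 0.49.

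All 4 Hhip probes gave a higher tertiary mean and had their highest value in tertiary glioma 1. The second-brightest Hhip probe averaged 6.11 in tertiary and 5.36 in secondary gliomas (log2 levels), with 6.95 in tertiary glioma 1, 5.39 in tertiary glioma 3 and up to 5.84 in secondary gliomas. It repeated the pattern of the first, with tertiary glioma 3 inside the secondary range. The log2 differences of the 4 probes ran from 0.45 to 1.02, and the lower end came from a dim probe.

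Smo encodes the transmembrane protein that Ptch1 holds inactive and that carries the signal to the Gli proteins. Its log2 levels were 7.33, 7.73 and 7.25 in tertiary gliomas, against 5.72, 6.74, 6.75 and 7.28 in secondary gliomas. Tertiary glioma 2 was highest and secondary glioma 1 lowest, and secondary glioma 4 fell just above tertiary glioma 3. The means were 7.44 ± 0.26 in tertiary and 6.62 ± 0.65 in secondary gliomas (SD), a log2 difference of 0.82 ± 0.34 (SE, adjusted p = 0.200 in limma, n = 3 and 4), with a 95% interval of 0.02 to 1.61. Without secondary glioma 1 it was 0.52.

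The 3 Smo probes all had their highest value in tertiary glioma 2 and log2 differences between 0.68 and 0.82. On its second-brightest probe, whose design also allows related transcripts to bind, Smo read 5.87, 6.50 and 5.50 in tertiary gliomas, against 4.96, 5.03, 5.27 and 5.32 in secondary gliomas. Here the groups did not overlap, which held for 1 of the 16 member probes above the dim limit and for 20.9% of all such probes. With every probe tested on its own its adjusted p was 0.105, and none of the 16 was called, where 5.85% of all probes were.

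**Figure D2:**
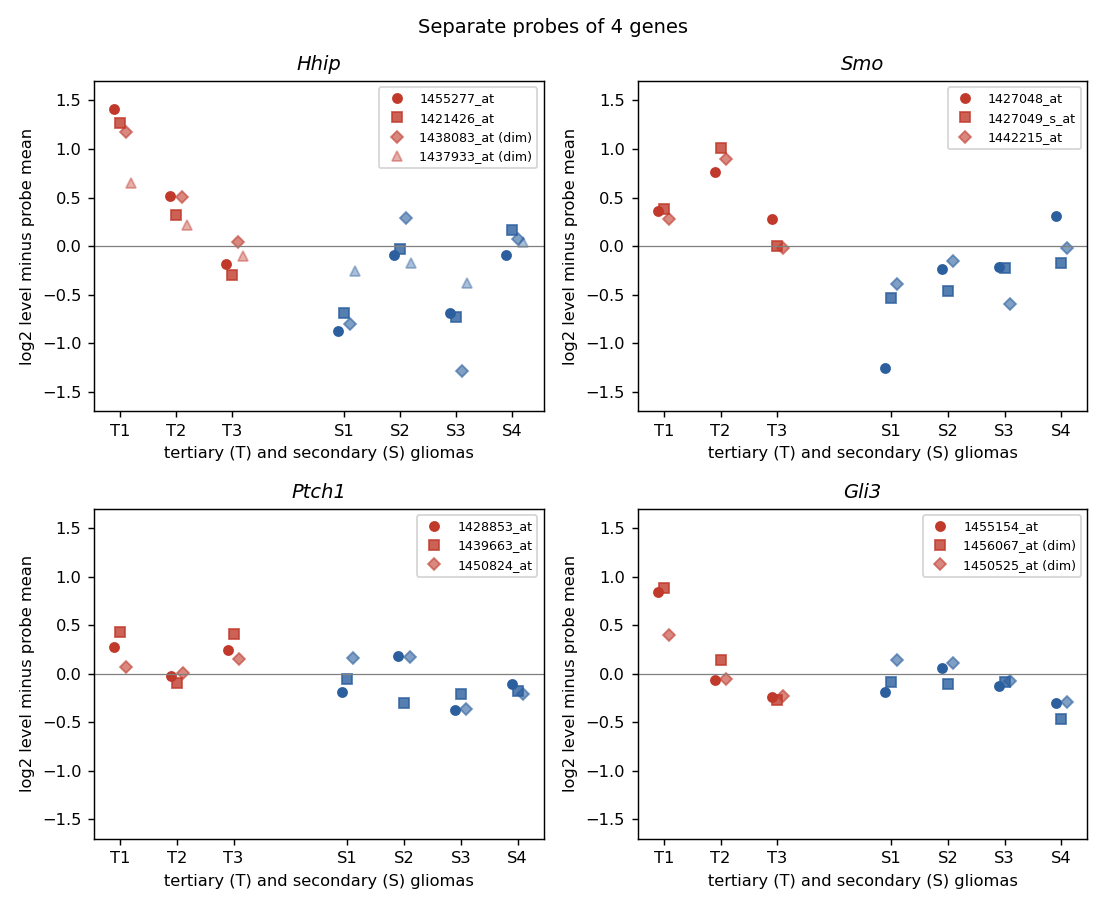
Log2 level of each probe of Hhip, Smo, Ptch1 and Gli3 minus that probe's mean over the 7 arrays, for tertiary (T, red, left) and secondary (S, blue, right) gliomas; marker shapes are probes, and probes below the dim limit are marked. All 4 Hhip and all 3 Gli3 probes peak in tertiary glioma 1, and all 3 Smo probes in tertiary glioma 2.

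The promoters of Hhip and Smo are shown because these genes had the largest differences among the 9. The sequences are RefSeq's, of build GRCm38.p6, and cover the 250 bases before the annotated start, read 5′ to 3′ on the gene's strand. Capitals mark CCACCC, the core of the motif that Gli zinc fingers bind. Hhip lies on the minus strand (chr8:80058009-80058258) and Smo on the plus strand (chr6:29735247-29735496).
Hhip: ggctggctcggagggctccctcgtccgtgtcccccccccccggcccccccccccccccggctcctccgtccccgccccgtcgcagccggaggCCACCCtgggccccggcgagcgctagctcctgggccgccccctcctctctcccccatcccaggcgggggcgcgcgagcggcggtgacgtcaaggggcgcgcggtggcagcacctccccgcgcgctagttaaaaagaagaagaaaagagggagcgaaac
Smo: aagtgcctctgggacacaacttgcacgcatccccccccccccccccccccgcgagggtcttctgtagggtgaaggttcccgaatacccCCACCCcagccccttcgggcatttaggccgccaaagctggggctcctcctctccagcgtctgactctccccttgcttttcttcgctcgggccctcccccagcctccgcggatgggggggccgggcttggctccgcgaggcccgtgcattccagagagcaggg

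Promoters of 7 of the 9 genes were in the RefSeq table. The full 9-letter consensus GACCACCCA, searched on both strands, was in 0 of these 7 windows and in 0.225% of all 32851 windows of that length. The 6-letter core CCACCC, which the full motif contains, was in 4 of 7 windows on either strand, those of Hhip, Smo, Gli2 and Gli3, and in 28.1% of all windows. In Hhip it began 158 bases and in Smo 162 bases before the start. These windows are rich in G and C, at 76.0% in Hhip and 68.4% in Smo, and the matches are descriptions of letters only.

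Ptch1 encodes the receptor that holds Smo inactive and, as a target, is commonly read as a gauge of pathway activity. Its log2 levels were 8.85, 8.56 and 8.83 in tertiary gliomas, against 8.39, 8.76, 8.21 and 8.47 in secondary gliomas. Tertiary gliomas 1 and 3 were above all secondary gliomas, and tertiary glioma 2 lay below secondary glioma 2. The log2 difference was 0.29 ± 0.17 (SE, n = 3 and 4, adjusted p = 0.329 in limma), with a 95% interval of -0.10 to 0.68, so a rise beyond 1.60-fold lies outside it. All 3 Ptch1 probes had a higher tertiary mean, by 0.14 to 0.43 on the log2 scale. The interval above holds for the brightest probe only. The second-brightest gave 0.43 ± 0.17 (SE, adjusted p = 0.186 in limma with every probe tested on its own).

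The co-receptors Gas1 and Boc bind Hedgehog ligands beside Ptch1. Gas1 had log2 levels of 7.69, 7.69 and 8.08 in tertiary gliomas, against 8.28, 7.62, 7.10 and 7.69 in secondary gliomas. The secondary samples held both the highest and the lowest value, and the log2 difference was 0.14 ± 0.27 (SE, adjusted p = 0.784). Boc had log2 levels of 5.69, 5.31 and 5.50 in tertiary gliomas, against 5.56, 5.56, 5.63 and 5.40 in secondary gliomas. The whole range of Boc over the 7 arrays was 0.37 log2 units, and its difference was -0.04 ± 0.14 (SE, adjusted p = 0.901), with a 95% interval of -0.36 to 0.29.

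Sufu encodes a cytoplasmic protein that binds Gli proteins and restrains them. It had log2 levels of 5.55, 5.89 and 6.27 in tertiary gliomas, against 5.91, 6.06, 6.13 and 5.87 in secondary gliomas. Tertiary glioma 1 was the lowest and tertiary glioma 3 the highest of all 7 samples. The log2 difference was -0.09 ± 0.19 (SE, adjusted p = 0.812), and the 95% interval ran from -0.52 to 0.34. Of the 3 Sufu probes, 2 had a difference of the other sign, up to 0.23.

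The 3 Gli genes were read near or below the dim-probe limit. Gli1, the activator that is itself induced by signalling, had log2 levels of 4.14, 3.87 and 3.82 in tertiary gliomas, against 3.82, 3.99, 4.11 and 3.84 in secondary gliomas. Tertiary glioma 1 and secondary glioma 3 were almost level at the top, and the range over all 7 samples was 0.31 log2 units. Gli2, the main activator upstream of Gli1, read 3.94, 3.82 and 3.82 in tertiary gliomas, against 3.85, 3.75, 3.70 and 3.82 in secondary gliomas. The design of this Gli2 probe also allows related transcripts to bind, and the other Gli2 probe averaged 2.85. Gli1 had 1 probe only. No detection calls were used, and for probes this dim a difference may be compressed. In a fit without the dim filter, Gli1 differed by 0.0029 ± 0.13 (SE, adjusted p = 0.993 in limma, n = 3 and 4) and Gli2 by 0.08 ± 0.10 (adjusted p = 0.698), and 5.32% of all genes were called there.

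Gli3, the main repressor of the pathway in the absence of ligand, passed the filter on 1 of its 3 probes. Its log2 levels were 4.97, 4.07 and 3.89 in tertiary gliomas, against 3.94, 4.19, 4.01 and 3.83 in secondary gliomas. Tertiary glioma 1 stood apart from the other 6, which lay within 0.36 log2 units of each other. The next Gli3 probe, itself dim, repeated this, with 4.72, 3.99 and 3.57 in tertiary gliomas, against 3.75, 3.74, 3.75 and 3.37 in secondary gliomas. The log2 difference of 0.32 ± 0.26 (SE, adjusted p = 0.489) became -0.01 without tertiary glioma 1.

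On the brightest probes, tertiary glioma 1 held the highest of the 7 values in 6 of the 9 genes (Gli1, Gli2, Gli3, Ptch1, Hhip and Boc), and the lowest in Sufu. Over all 18193 named genes it held the highest value in 20.8%. Not every probe gave this: it was highest on 4 of 4 Hhip and 3 of 3 Gli3 probes, but on 2 of 3 for Ptch1, 1 of 2 for Gli2 and 1 of 3 for Boc. A dim Sufu probe even had its highest value there, at 3.60. The margin was small in Ptch1, Gli1 and Boc and wide in Hhip and Gli3. This library also moved the array-wide counts, since 1857 genes (12.8%) were called without it, yet none of the 7 tested Hedgehog genes was among them. Without both tertiary glioma 1 and secondary glioma 3, 1549 genes (10.7%) were called and again none of the 7.

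The 3 tested genes whose profile over the 7 samples lay nearest to that of Gli1, by root mean square difference of centred log2 values, were Pklr (0.0406), Tmc8 (0.0469) and St8sia2 (0.0473). A flat profile lay at 0.126, and Pklr itself ranged over 0.40 log2 units, so these profiles were all nearly flat.

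The wider pathway was described through lists of its other genes. All 9 genes for ligands and their release were tested and none was called. Shh, the ligand of the ventral neural tube, named after its value was seen, was at 5.46 ± 0.05 in tertiary and 5.54 ± 0.11 in secondary gliomas (SD, log2 level). Dhh, known as the ligand of Schwann cells and Sertoli cells, had a log2 difference of 0.55 ± 0.24 (SE, adjusted p = 0.220), but 0.05 on its other probe. Disp1, which releases lipid-modified ligand from the cell that makes it, had a difference of 0.28 ± 0.15 (adjusted p = 0.300), but 0.68 on its other probe.

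Of the other surface proteins 5 were tested and none was called. Gpc4 and Gpc5 encode glypicans, heparan sulfate proteoglycans of the cell surface. Gpc5 read 8.54, 4.35 and 6.49 in tertiary gliomas, against 8.22, 8.03, 7.50 and 7.80 in secondary gliomas. Tertiary glioma 1 was the highest of all 7 and the other two tertiary samples the lowest. Its log2 difference was -1.43 ± 0.83 (SE, adjusted p = 0.334 in limma, n = 3 and 4), but -2.47 without tertiary glioma 1 (adjusted p = 0.0335) and -0.38 without tertiary glioma 2 (adjusted p = 0.758). Gpc4 was alike, at 8.55, 5.91 and 6.05 in tertiary gliomas, against 7.89, 8.30, 7.65 and 7.82 in secondary gliomas, with a difference of -1.08 ± 0.60 (adjusted p = 0.316) that became -1.93 (adjusted p = 0.00208) without tertiary glioma 1. With tertiary glioma 2 or 3 left out instead, the Gpc4 difference was -0.62 (adjusted p = 0.658) or -0.68 (adjusted p = 0.628). In the fit lacking tertiary glioma 1, 7.44% of all genes were called lower. With secondary glioma 3 left out as well, Gpc4 was still called and Gpc5 was not (adjusted p = 0.0583).

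Of the genes of the primary cilium that act in Hedgehog transduction, 12 were tested and none was called. All 12 had a higher mean in tertiary gliomas, as 60.6% of all genes did, and their median log2 difference was 0.57, beside 0.09 over all genes. The groups did not overlap in 3 of the 12, each higher in tertiary gliomas, where 10.8% of all genes were separate in that direction. Tulp3, which brings receptors such as the negative regulator Gpr161 into the cilium, read 7.38, 7.35 and 6.98 in tertiary gliomas, against 6.17, 6.58, 6.38 and 6.78 in secondary gliomas. Its log2 difference was 0.76 ± 0.19 (SE, adjusted p = 0.0516 in limma), and 1 of its 3 probes gave -0.07. It was called with a dim filter at the 50th percentile (adjusted p = 0.0465) and after median centring (0.0435), but not with its probes averaged (difference 0.48, adjusted p = 0.0976). No other alternative took Tulp3 under 0.05. Its other probes on their own aside, the adjusted p ran up to 0.174, without tertiary glioma 2.

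Kif7, a kinesin of the ciliary tip that regulates Gli processing, read 6.52, 7.11 and 7.08 in tertiary gliomas, against 5.67, 6.01, 6.31 and 6.18 in secondary gliomas. Every tertiary sample was above every secondary one, and the log2 difference was 0.86 ± 0.21 (SE, adjusted p = 0.0545). Over the alternatives its adjusted p ran from 0.00903 to 0.189. Without tertiary glioma 1, 2 of the 12 genes were called higher, Kif7 (difference 1.05, adjusted p = 0.0208) and Efcab7 (difference 1.46, adjusted p = 0.00611), while 5.4% of all genes were called higher in that fit. Efcab7, an anchor of the Evc complex named here after its value was seen, had a difference of 0.98 ± 0.37 (SE, adjusted p = 0.164) over all 7 samples and 0.65 (adjusted p = 0.414) without tertiary glioma 2. Kif7 and Efcab7 were also called when secondary glioma 3 was left out as well.

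**Figure D3:**
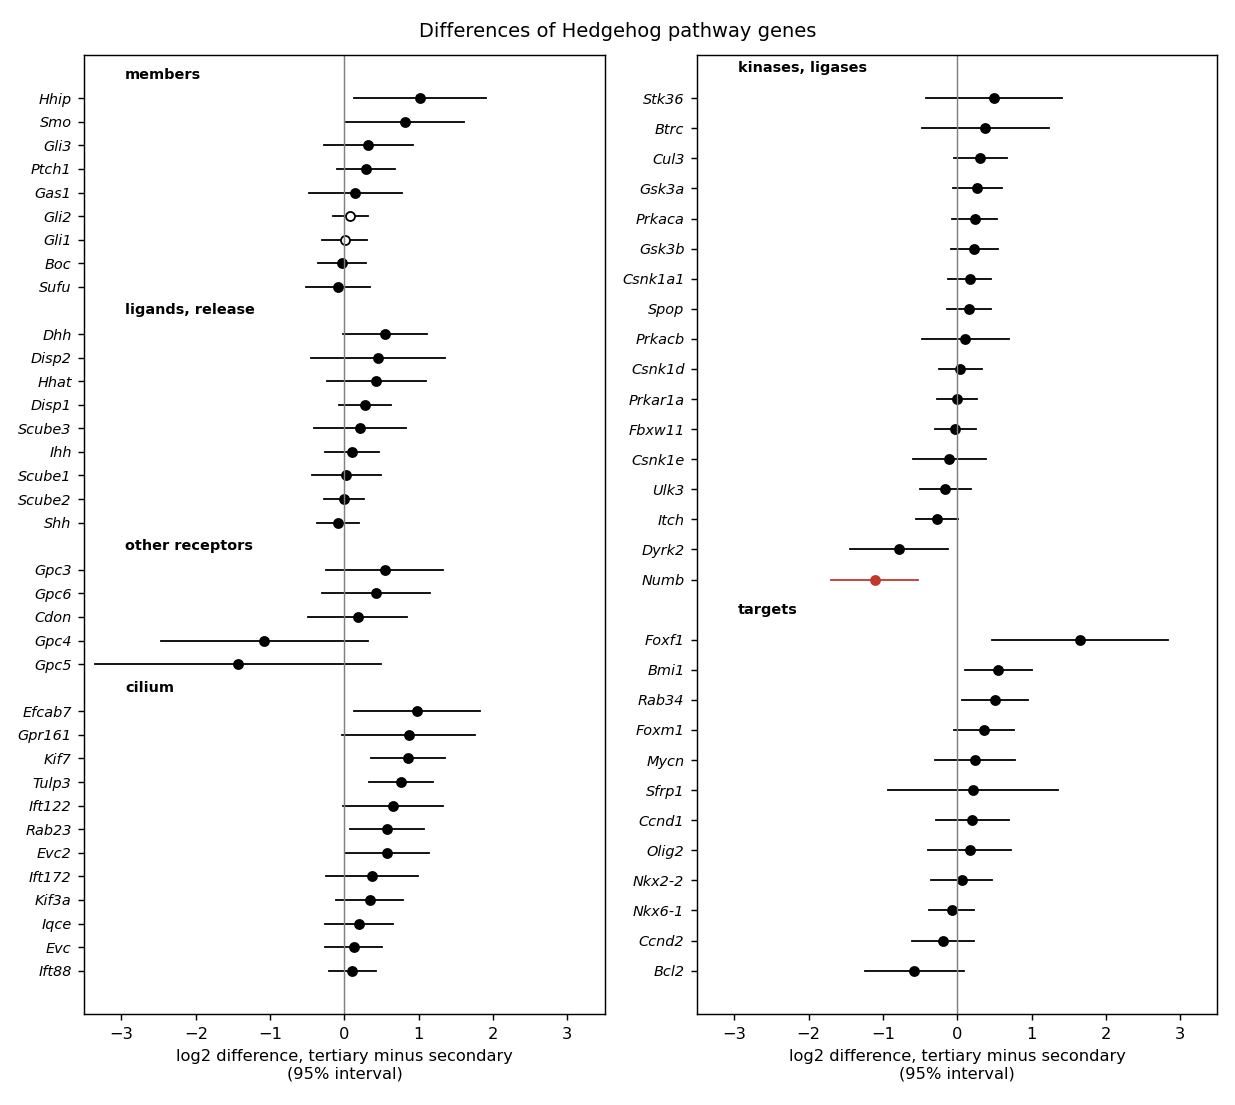
Log2 difference, tertiary minus secondary glioma, with its unadjusted 95% interval from limma, for the 9 Hedgehog genes and 5 lists of other pathway genes (n = 3 and 4). Open circles are Gli1 and Gli2, from the fit without the dim filter, and red marks Numb, the gene called; all 12 cilium genes lie to the right of 0.

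Among 17 tested kinases, ubiquitin ligases and adaptors that act on Smo or Gli proteins, Numb was lower and no gene was higher, that is 1 of 17, where 6.33% of all genes were lower. Numb, an adaptor that promotes the breakdown of Gli1 through the ligase Itch and also restrains Notch, read 7.74, 7.39 and 7.60 in tertiary gliomas, against 8.28, 8.52, 9.34 and 8.61 in secondary gliomas. On this brightest probe every tertiary sample was below every secondary one, and Numb fell by 1.11 ± 0.25 on the log2 scale (SE, adjusted p = 0.0391 in limma, n = 3 and 4). Its other probe read 6.06, 5.59 and 5.60 in tertiary gliomas, against 5.65, 6.19, 7.53 and 6.42 in secondary gliomas, so the groups overlapped. There the log2 difference was -0.70, with an adjusted p of 0.338 in limma with every probe tested on its own. The call on the brightest probe was lost without secondary gliomas 2 or 4 (adjusted p = 0.0760 and 0.0846) and without tertiary gliomas 2 or 3 (0.142 and 0.115). With no dim filter (0.0501) or with the replicate number as a block (0.109) it was lost as well. With the Numb probes averaged, Numb was not called (difference -0.91, adjusted p = 0.134). Over all alternatives, the other probe on its own aside, the adjusted p ran from 0.0101 to 0.142. The 17 myeloid markers had a median log2 difference of -4.23 between these groups. The median of the 17 genes was 0.11, with differences between -1.11 and 0.50.

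None of 12 tested genes described as Hedgehog targets was called, and their median log2 difference was 0.21. Foxf1, a forkhead factor of Hedgehog-responsive mesenchyme, read 6.27, 7.35 and 8.52 in tertiary gliomas, against 5.12, 5.50, 6.27 and 6.02 in secondary gliomas. Tertiary glioma 1 and secondary glioma 3 had the same value, and the difference was 1.65 ± 0.51 (SE, adjusted p = 0.106), but 0.66 on its other probe and 1.08 without tertiary glioma 3 (adjusted p = 0.240). Bmi1, a Polycomb protein of stem cell renewal, had a difference of 0.55 ± 0.19 (adjusted p = 0.138). Without tertiary glioma 1 Foxf1 was at 2.21 (adjusted p = 0.0214) and Bmi1 at 0.74 (adjusted p = 0.0337), where 5.4% of all genes were called higher. Bmi1 was at 0.52 (adjusted p = 0.324) without tertiary glioma 2 and at 0.39 (adjusted p = 0.348) without tertiary glioma 3. Its other probe gave 0.43 (adjusted p = 0.310 in limma with every probe tested on its own). The proliferation targets Ccnd1 and Mycn, named after their values were seen, differed by 0.20 ± 0.21 and 0.24 ± 0.23, from tertiary levels of 11.24 ± 0.07 and 11.83 ± 0.34 (SD).

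**Figure D4:**
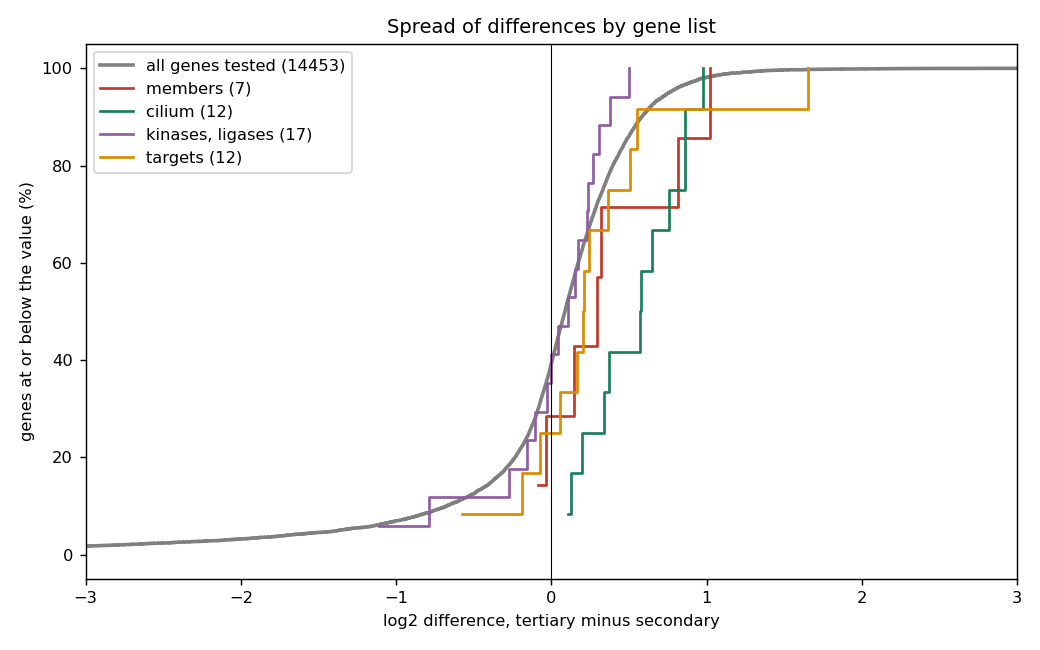
Cumulative share of genes (%) at or below each log2 difference, tertiary minus secondary glioma, for all 14453 genes tested (grey), the 7 tested Hedgehog genes, and 12 cilium, 17 kinase and ligase and 12 target genes. The x axis is limited to 3 on either side; the cilium curve starts above 0, and the kinase and ligase curve runs close to that of all genes.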

How the data were processed

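The authors deposited log2 expression values of 7 arrays, made with RMA per the submitters' processing notes; the labels name no software or version, and the log base was inferred from the range of values. RMA equalises arrays and compresses dim probes. Per the labels' protocols, 30 ng of RNA was amplified and labelled with biotin. Probes were named through the platform annotation: of 45101, 34945 had 1 symbol, 932 several, 9160 none and 64 were controls. Genes whose probe mean was below the 25th percentile of all probes (3.99) were left out. Tertiary and secondary gliomas, grouped by the labels, were compared with limma 3.58.1 in R 4.3.3 (lmFit, eBayes) over 14453 genes, with Benjamini-Hochberg adjustment. Intervals are 95% and unadjusted. No batch could be tested, as scan dates were not used here, and precision is limited by the array number. Pairs of arrays shared at most 5.39% of values exactly, so none was a copy of another. The labels call all 7 biological replicates, and they were counted as samples. Exact matches cannot show whether samples shared a donor glioma.

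The members and gene lists were chosen with earlier results of these data known. All members were named, with up to 4 called genes of each pathway list, or the 2 of lowest p where none was called; exceptions are stated. The same comparison of tertiary and secondary gliomas was tested on simulated data for 14453 genes. It called 49% of 100 genes given a log2 change of 1 and 94% of 100 given a change of 2, with 6 false calls. The simulated noise was independent and of equal size in all arrays, and few genes were changed. These rates need not hold for the real arrays. Figures used matplotlib 3.10.9 and tables pandas 2.3.3 in Python 3.11.15. Alternatives covered probe choice, the dim filter, normalization, variance, array weights, the threshold, a replicate block and samples left out; leaving out 2 samples together was added after seeing the data.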

Additional observations from a re-analysis of the deposited data

How the results depend on the processing

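None of the Hedgehog genes was called under any of the 19 alternatives. Other probes on their own aside, adjusted p ranged over them from 0.0822 to 0.374 for Hhip, 0.101 to 0.448 for Smo and 0.230 to 0.608 for Ptch1. The log2 difference stayed above 0 in all of them, at 0.49 to 1.40 for Hhip, 0.52 to 1.04 for Smo and 0.15 to 0.39 for Ptch1. The other Ptch1 probes lay outside both ranges, with differences of 0.43 and 0.14 (adjusted p = 0.186 and 0.677 in limma with every probe tested on its own). Alternatives that changed only the dim filter, the variance or the threshold could not move the difference. With every probe tested, the value counted here was that of the brightest probe, so it could not move either. Unchanged values of these alternatives say nothing on how stable the sign of the difference was. The sign changed in 10 of 130 values of the 7 tested members, among Boc, Sufu, Gas1 and Gli3. These 130 include values that the alternative could not move, and they leave out the other probes tested on their own. Among those left out, a Sufu probe gave 0.23 and a Gas1 probe -0.016, against the sign of the brightest probe. The rest of those above the dim limit kept its sign. Gli3, at 0.32 over all 7 samples, changed sign only in fits without tertiary glioma 1. The sign also changed in 6 of 13 values of Gli1, which ran from -0.0941 to 0.0632, and the cause was not tested. Boc was at 0.0039 after median centring and 0.010 after quantile normalization, and ran from -0.13 to 0.057 with 1 sample left out. Sufu was at 0.0893 with probes averaged, 0.0905 with array weights and 0.13 without tertiary glioma 1 and secondary glioma 3, and ran from -0.27 to 0.0873 with 1 sample left out. Gas1 ran from -0.047 to 0.35 and Gli3 from -0.011 to 0.53 with 1 sample left out, and Gli3 was at -0.0052 without the same 2 samples. Over all genes, 1066 calls became 1610 with every probe tested, 1933 with array weights and 1622 at an adjusted p under 0.10, and ran from 647 to 1857 with 1 sample left out. With the replicate number as a block, which uses 3 samples a group, 636 genes were called; deviations of same-numbered samples correlated at 0.04, -0.14 and 0.01, and 0 of 6 samples correlated best with their own number. The block ended the call of Numb (adjusted p = 0.109) and gave one to Foxf1 (0.0364). Array weights gave calls to Foxf1 (0.0158), Gpc4 (lower, 0.0355), Bmi1 (0.0323), Kif7 (0.00903) and Efcab7 (0.0262), where 1933 of 14453 genes were called. Kif7 was also called with a 50th percentile filter (0.0465) and in the fit with probes averaged (0.0482). Kif7 had no other probe, so both of these fits kept its difference at 0.86. Signals near 3.99 limit what can be said of Gli1, Gli2 and Gli3.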
